A study of Mus musculus with 9 samples.

Results

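miR-378 was measured here in extracellular vesicles (EVs) of the mouse airway, under the entries of the sequencing table whose name starts with mir-378. These were 11 of the 1308 entries. They comprised miR-378-3p, the abundant arm of the hairpin, 6 isomiRs of that arm, the miR-378-5p arm, and 3 entries of miR-378b, a separate gene of the same family. An isomiR is a variant of a miRNA that starts at another base, and the table marks it by the shift of its 5′ end, so that miR-378-3p +1 starts 1 base downstream of miR-378-3p. The miRNA was selected on its measured levels, which were lowest after 1 ppm ozone (O3), so that its levels by exposure are given as a description without a test.

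Female C57BL/6J mice of 8 to 10 weeks inhaled filtered air (FA), 1 ppm O3 or 2 ppm O3 for 3 h in whole-body chambers, and bronchoalveolar lavage fluid (BALF) was taken 21 h after the exposure ended. Small RNA of EVs from BALF was sequenced in 9 pools, 3 per exposure, with BALF of 4 mice in each FA pool and of 3 mice in each O3 pool, so that pool size and O3 cannot be told apart. Each O3 concentration came from a single exposure session, so that concentration and session cannot be told apart either. The EVs were a mixture from all cells that shed into the airway lumen, isolated by membrane affinity and not sorted by cell of origin.

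The hairpin of miR-378 lies within Ppargc1b, the gene of PGC-1β, a coactivator that drives mitochondrial and oxidative genes, and the miRNA is known in skeletal muscle, brown fat and macrophages as a regulator of energy metabolism. miR-378b lies within the span of Msi2, which encodes an RNA-binding protein. A miRNA recognises its targets mainly by its seed, bases 2 to 8 from the 5′ end, so that a shift of the 5′ end also shifts the seed and with it the set of mRNAs the molecule can pair with.

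The shift is shown for miR-378b, of which the table holds the annotated start and a shift of 1 base on either side. The RefSeq entry of its mature sequence lies at chr11:88352839-88352858 on the plus strand of GRCm38.p6. In the lines below the seed is in capitals, and the 3′ end of the RefSeq entry was kept because the table names the start alone.
miR-378b -1: cCUGGACUuggagucagaaga
miR-378b: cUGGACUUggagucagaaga
miR-378b +1: uGGACUUGgagucagaaga
The shift by 1 base exchanges 1 base at each end of the seed, and the remaining bases of the seed are kept. miR-378b and miR-378-3p are close in sequence, so the division of reads between their entries is uncertain.

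Levels were deposited as RPMMM, a form of RPM in which the reads mapped to miRNAs have the same total in every pool, so that a level is a share of all miRNA reads. Low values rise in steps of 1 read, from which the depth was estimated at 281411 to 861133 miRNA reads, with the lowest depth in the 3 pools of 2 ppm O3 (281411 to 300681 reads). No value above 0 was below about 10 reads in any pool, and lower values are listed at 0. A lower share can come from fewer vesicles that carry the miRNA, from fewer copies per vesicle or from a larger amount of other miRNAs, and these cannot be told apart.

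miR-378-3p was among the most abundant miRNAs of airway EVs in FA mice and far less abundant after 1 ppm O3, with an intermediate level after 2 ppm O3. The 3 FA pools had 23320, 30205 and 35337 RPMMM (mean 29620 ± 6030, SD, n = 3). The 3 pools of 1 ppm O3 had 3603, 5526 and 3973 RPMMM (4367 ± 1020), and the 3 pools of 2 ppm O3 had 11955, 13254 and 13913 RPMMM (13041 ± 996). No pool of any exposure overlapped with a pool of another. The mean level in FA was 6.78-fold that after 1 ppm O3 and 2.27-fold that after 2 ppm O3, and the level after 2 ppm O3 was 2.99-fold that after 1 ppm O3. On the log2(RPMMM + 1) scale the differences were -2.77 for 1 ppm O3 minus FA, -1.17 for 2 ppm O3 minus FA and 1.60 for 2 ppm O3 minus 1 ppm O3. By its mean level miR-378-3p ranked 7 of all entries in FA, 46 after 1 ppm O3 and 16 after 2 ppm O3. In single pools it ranked between 5 and 11 in FA, between 43 and 50 after 1 ppm O3 and between 15 and 18 after 2 ppm O3. These levels rest on 17983 to 23357 reads per pool in FA, 2165 to 3422 after 1 ppm O3 and 3595 to 3915 after 2 ppm O3, so counting error is small beside the spread of the pools.

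All 11 entries together took 3.28% of the miRNA reads in FA (SD 0.688 percentage points), 0.487% after 1 ppm O3 (SD 0.122) and 1.47% after 2 ppm O3 (SD 0.113). The unshifted miR-378-3p was the bulk of these, at 90.5% of the summed level in FA, 89.9% after 1 ppm O3 and 88.5% after 2 ppm O3. The lowest mean was after 1 ppm O3 for 7 of the 11 entries and after 2 ppm O3 for 1 entry, miR-378-5p, while 3 entries were listed at 0 in every O3 pool.

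Among the isomiRs, miR-378-3p +1 and miR-378-3p +2 were listed above 0 in all 9 pools. miR-378-3p +1 had 1534, 2050 and 2685 RPMMM in FA, 223, 611 and 339 RPMMM after 1 ppm O3, and 1131, 1152 and 1657 RPMMM after 2 ppm O3. Every pool of 1 ppm O3 was below all others, and 1 pool of 2 ppm O3 lay within the range of FA. Its log2 differences were -2.50 for 1 ppm O3 minus FA, -0.66 for 2 ppm O3 minus FA and 1.85 for 2 ppm O3 minus 1 ppm O3. miR-378-3p +2 had 454, 458 and 646 RPMMM in FA, 102, 20.7 and 89.4 RPMMM after 1 ppm O3, and 328, 271 and 267 RPMMM after 2 ppm O3. The 3 exposures did not overlap, and the lowest of these values, in the pool 2 of 1 ppm O3, rests on 11.5 reads. Its log2 differences were -3.13, -0.83 and 2.30 in the same order.

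**Figure D1:**
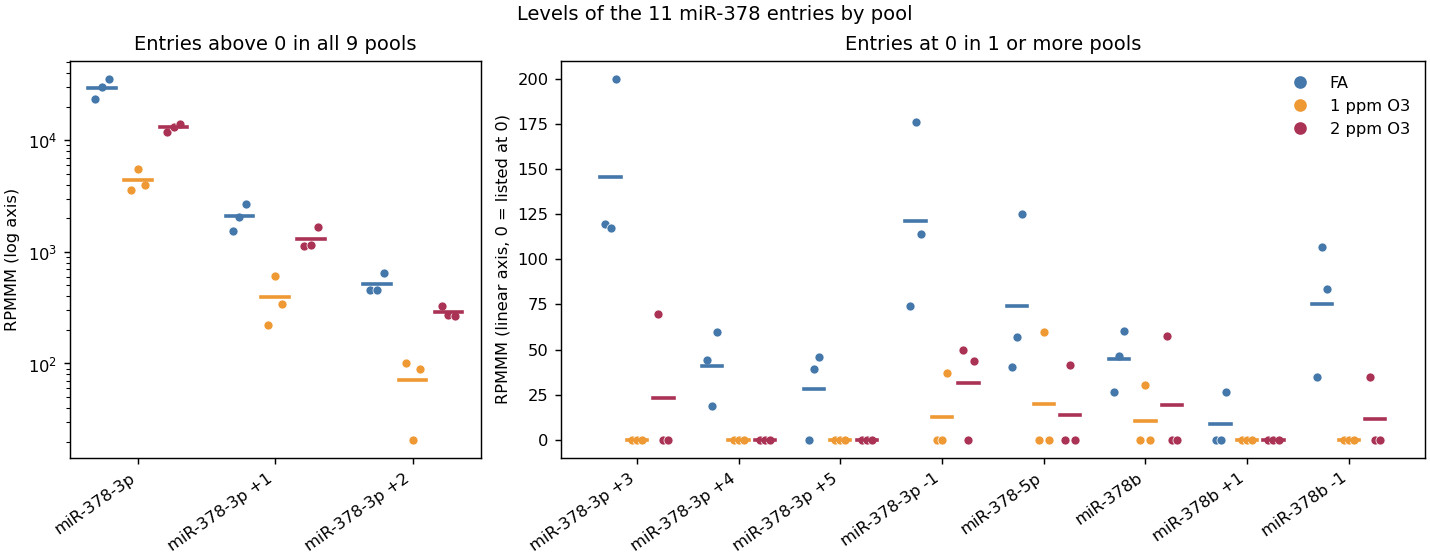
Level of each of the 11 miR-378 entries by pool, in RPMMM, with 1 point per pool and a bar at the mean of the 3 pools of an exposure. The left panel has a log axis and shows that miR-378-3p, +1 and +2 were lowest in the pools of 1 ppm O3. The right panel has a linear axis and shows entries that were mostly listed at 0 in the O3 pools.

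The remaining entries were rare. miR-378-3p -1, which starts 1 base upstream, had 73.9, 176 and 114 RPMMM in FA, 0, 0 and 37.2 RPMMM after 1 ppm O3, and 49.9, 0 and 43.8 RPMMM after 2 ppm O3. miR-378-3p +3 had 119, 118 and 199.8 RPMMM in FA, was listed at 0 in all 3 pools of 1 ppm O3, and was above 0 in 1 pool of 2 ppm O3, at 69.9 RPMMM. miR-378-3p +4 was listed between 19.0 and 59.8 RPMMM in the 3 FA pools, and miR-378-3p +5 at 39.4 and 45.8 RPMMM in 2 FA pools; neither was above 0 in an O3 pool. Thus all 6 isomiRs of the 3p arm had their highest mean in FA.

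The 5p arm and miR-378b were at the edge of detection. miR-378-5p, the minor arm of the hairpin, had 40.2, 56.9 and 125 RPMMM in FA, 59.5 RPMMM in 1 pool of 1 ppm O3 and 41.5 RPMMM in 1 pool of 2 ppm O3. miR-378b had 26.7, 46.6 and 60.1 RPMMM in FA, 30.6 RPMMM in 1 pool of 1 ppm O3 and 57.7 RPMMM in 1 pool of 2 ppm O3, so that the exposures overlapped for both. The form of miR-378b with 1 further base at its start, the first of the printed sequences, had 34.6, 107 and 83.3 RPMMM in FA and 34.9 RPMMM in 1 pool of 2 ppm O3, and was listed at 0 in the other O3 pools. The form that starts 1 base later was above 0 in 1 FA pool, at 26.6 RPMMM.

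Whether these zeros lay below the limit of the table was asked by taking the ratio of each entry to miR-378-3p in FA and the reads of miR-378-3p in each O3 pool. Of 60 O3 values of the 10 other entries, 39 were listed at 0. At the FA ratio, 32 of these would be below the lowest level listed in their pool, and their loss was not detectable at this depth. The other 7 would be above it, with 5 of miR-378-3p +3 and 2 of miR-378-3p -1. The reads expected for miR-378-3p +3 were between 10.6 and 19.2, close to that limit.

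The composition of miR-378 was not used to select it and does not change with the scaling of the pools, so it was compared between exposures. It can change with depth, because rare isomiRs below about 10 reads are listed at 0. While the level of miR-378-3p differed 6.78-fold between FA and 1 ppm O3, the share of its 5′-shifted isomiRs was 8.71, 8.65 and 9.59% in FA (mean 8.99 ± 0.528%, SD, n = 3) and 8.26, 10.3 and 10.5% after 1 ppm O3 (9.67 ± 1.23%). After 2 ppm O3 it was 11.7, 9.70 and 12.4% (11.3 ± 1.39%), and all 3 of these pools were above all FA pools, by 2.27 percentage points in the mean. The test over the 3 exposures gave no p below 0.05 (exact permutation test, two-sided, p = 0.118, adjusted p = 0.357 over 4 measures of composition). In the comparison of 2 ppm O3 with FA the exact permutation test gave p = 0.1, the smallest that 3 pools against 3 allow, with an adjusted p = 0.6 over 12 comparisons. The share for 1 ppm O3 against FA differed by 0.686 percentage points (exact permutation p = 0.4) and for 2 ppm O3 against 1 ppm O3 by 1.58 points (exact permutation p = 0.3). Where only the +1 and +2 isomiRs were counted, the difference of 2 ppm O3 from FA was 2.86 points with an unadjusted p = 0.0357 over the 3 exposures, and without the pool 2 of 2 ppm O3 it was 3.04 points with p = 0.0286 (exact permutation tests).

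The +1 isomiR made up most of the shifted share, at 6.36% of the 3p arm in FA, 7.75% after 1 ppm O3 and 8.88% after 2 ppm O3. The log2 ratio of miR-378-3p +1 to the unshifted entry was -3.84 ± 0.11 in FA, -3.58 ± 0.42 after 1 ppm O3 and -3.33 ± 0.23 after 2 ppm O3 (SD, n = 3; exact permutation test over 3 exposures, two-sided, p = 0.179, adjusted p = 0.357). For miR-378-3p +2 the log2 ratio was -5.83 ± 0.19, -6.23 ± 1.59 and -5.50 ± 0.27 (exact permutation p = 0.907, adjusted p = 0.907, n = 3). The 5p arm took 0.216% of the summed level of miR-378 in FA, 0.319% after 1 ppm O3 and 0.0939% after 2 ppm O3, with no p below 0.05 over the 3 exposures (exact permutation p = 0.85, adjusted p = 0.907).

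**Figure D2:**
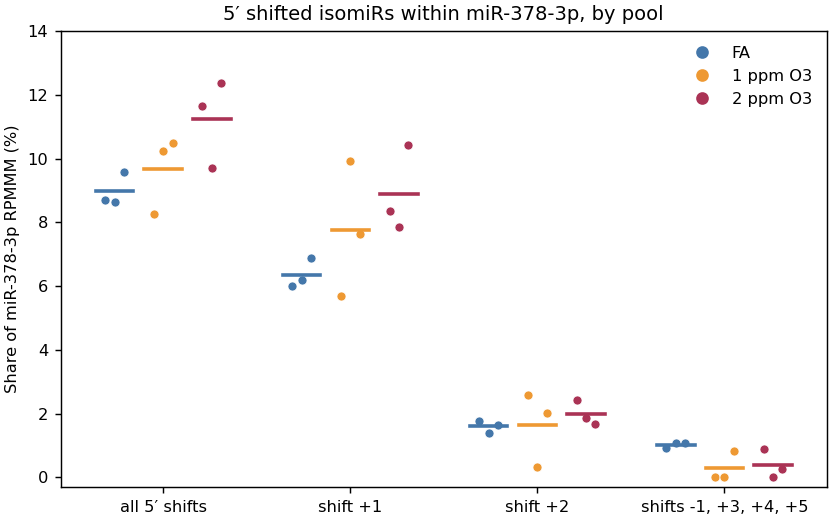
Share of the 5′-shifted isomiRs in the summed RPMMM of the miR-378-3p arm, in percent, with 1 point per pool and a bar at the mean of the 3 pools. All shifts together were between 8.65% and 9.59% in FA and between 9.70% and 12.4% after 2 ppm O3, and the pools of 1 ppm O3 spanned 8.26% to 10.5%.

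The same share was taken for all 90 miRNA arms with a mean above 1000 RPMMM. In 5 arms (5.56%), miR-378-3p among them, every pool of 2 ppm O3 had a higher shifted share than every FA pool, and in 15 arms every pool had a lower one. Over these arms the median shifted share was 5.35% and the median difference of 2 ppm O3 from FA was -0.618 percentage points. The pools of 2 ppm O3 had the lowest depth, and isomiRs below about 10 reads are listed at 0, which lowers a shifted share. The mean share after 2 ppm O3 was 0 for miR-351-5p (6.03% in FA) and miR-205-5p (4.76% in FA), among others. How far depth set these differences was not tested. With 9.97% over all pools, miR-378-3p ranked 17 by its shifted share, and 11 by the difference of 2 ppm O3 from FA.

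miR-378 was selected for a lowest level after 1 ppm O3, and a stricter pattern was counted over the table. Among 461 entries whose mean was above 50 RPMMM, 11 (2.39%) had every pool of 1 ppm O3 below every other pool, and 14 had every pool of 1 ppm O3 above every other. Of the 5 miR-378 entries among the 461, 3 were in the first set, miR-378-3p, +1 and +2. The rule took miR-378 for its low level after 1 ppm O3, so that nothing is read from the count of these 3 entries. They share a hairpin and are not independent. The other 8 entries of that set were both genomic copies of miR-128-3p, miR-16-1-3p, miR-320-3p, miR-326-3p, miR-34b-3p, miR-423-3p and miR-92b-5p. Just inside the pattern, the highest pool of 1 ppm O3 of miR-128-1-3p had 340 RPMMM, against 345 RPMMM in the lowest pool of 2 ppm O3. Of the miR-378 entries just outside it, miR-378-3p -1 had 37.2 RPMMM in 1 pool of 1 ppm O3 and was listed at 0 in 1 pool of 2 ppm O3. Under the 2 other scalings given below, the stricter pattern held for 19 of 455 and 19 of 441 entries. By the smaller of its 2 log2 steps, the fall to 1 ppm O3 and the rise to 2 ppm O3, miR-378-3p ranked 17 of the 461 entries. The median difference over the 461 entries was -0.08 for 1 ppm O3 minus FA and -0.69 for 2 ppm O3 minus 1 ppm O3 on the log2 scale, so that miR-378-3p lay below the median of all entries in the first of these steps and above it in the second.

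**Figure D3:**
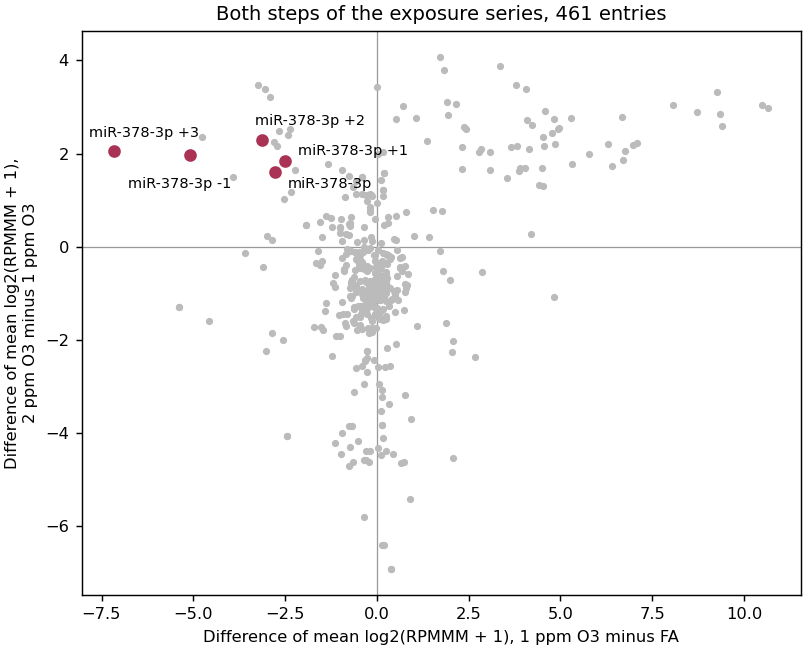
Difference of the mean log2(RPMMM + 1) for 1 ppm O3 minus FA on the horizontal axis and for 2 ppm O3 minus 1 ppm O3 on the vertical axis, with 1 point for each of 461 entries. The 5 miR-378 entries are marked and lie at the upper left, with -2.77 and 1.60 for miR-378-3p; both axes use the pools of 1 ppm O3, with opposite signs.

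By the correlation of log2(RPMMM + 1) over the 9 pools, which share the exposures and the scaling, the miRNAs most like miR-378-3p among 212 others were miR-320-3p (Pearson r = 0.948), miR-128-3p (r = 0.942), miR-16-1-3p (r = 0.911), miR-34c-3p (r = 0.899) and miR-127-3p (r = 0.874). miR-320-3p, a miRNA made from a hairpin that bypasses the Drosha step, had a mean level of 13549 ± 2297 RPMMM in FA, 6787 ± 582 after 1 ppm O3 and 10332 ± 1760 after 2 ppm O3 (SD, n = 3). Its log2 difference for 1 ppm O3 minus FA was -0.99, smaller in size than that of miR-378-3p. miR-128-3p, best known from brain and listed from a pair of genomic copies that were averaged, had 422 ± 28.8, 242 ± 35.9 and 307 ± 28.9 RPMMM. miR-16-1-3p, the minor arm of a miRNA that restrains the cell cycle, had 333 ± 36.8, 72.1 ± 34.8 and 151 ± 23.7 RPMMM. Its log2 differences of -2.33 and -1.15 from FA were the nearest in size to those of miR-378-3p among these 5.

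miR-34c-3p, from a cluster expressed in multiciliated airway cells, had 3431 ± 568 RPMMM in FA, 1749 ± 628 after 1 ppm O3 and 2219 ± 69.9 after 2 ppm O3 (SD, n = 3). miR-127-3p, from the imprinted Dlk1-Dio3 region, had 518 ± 229, 37.9 ± 29.6 and 123 ± 111 RPMMM, with log2 differences of -3.91 for 1 ppm O3 minus FA and -2.40 for 2 ppm O3 minus FA. For miR-34c-3p 1 pool of 1 ppm O3 was above all pools of 2 ppm O3, and for miR-127-3p the pools of both O3 concentrations overlapped. Of these 5, the mean order of FA above 2 ppm O3 above 1 ppm O3 was thus shared by all, while the separation of all pools of 1 ppm O3 from all others held for miR-320-3p, miR-128-3p and miR-16-1-3p.

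**Figure D4:**
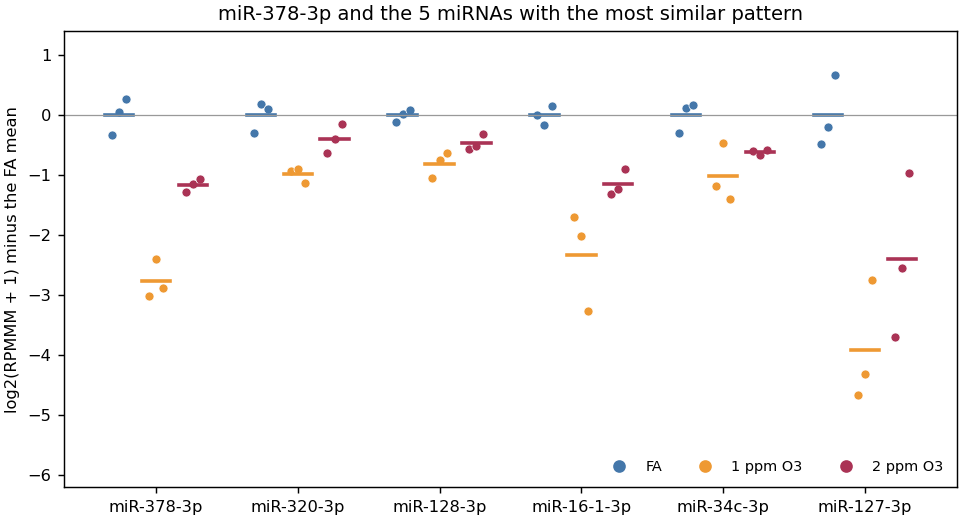
Difference of log2(RPMMM + 1) from the FA mean for miR-378-3p and the 5 miRNAs with the highest correlation with it over the 9 pools, with 1 point per pool and a bar at the mean of each exposure. The mean after 1 ppm O3 was the lowest for each of the 6 miRNAs, between -0.81 for miR-128-3p and -3.91 for miR-127-3p.

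The level after 2 ppm O3 depended on what the total is made of. miR-2137 and the entries of 4 hairpins (those of miR-5115, miR-5109, miR-5105 and miR-5102) took between 0.359% and 0.920% of the total in FA, between 5.51% and 10.9% after 1 ppm O3 and between 41.6% and 47.2% after 2 ppm O3, and every other entry has its share lowered by as much. With the total taken without them, the level of miR-378-3p was 29786 ± 6004 in FA, 4772 ± 1250 after 1 ppm O3 and 23800 ± 1142 after 2 ppm O3 in scaled RPM (SD, n = 3). The FA pools (23536 to 35508) and the pools of 2 ppm O3 (22655 to 24939) then overlapped, and the log2 difference of 2 ppm O3 from FA was -0.30 in place of -1.17. When scaled by the median ratio of entries it was -0.47, and the groups did not overlap. The difference of 1 ppm O3 from FA was -2.65 and -2.68 under these scalings, against -2.77 as deposited. Relative to the median of all entries, which moved by -0.83 from FA to 2 ppm O3 as deposited, miR-378-3p differed by -2.68 for 1 ppm O3 minus FA and by -0.34 for 2 ppm O3 minus FA. The low level after 1 ppm O3 thus held for miR-378-3p, +1 and +2 in all 3 scalings, whereas a lower level in every pool of 2 ppm O3 than in every FA pool held for miR-378-3p in the first 2 of the 3 alone, as deposited and by the median ratio.

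**Figure D5:**
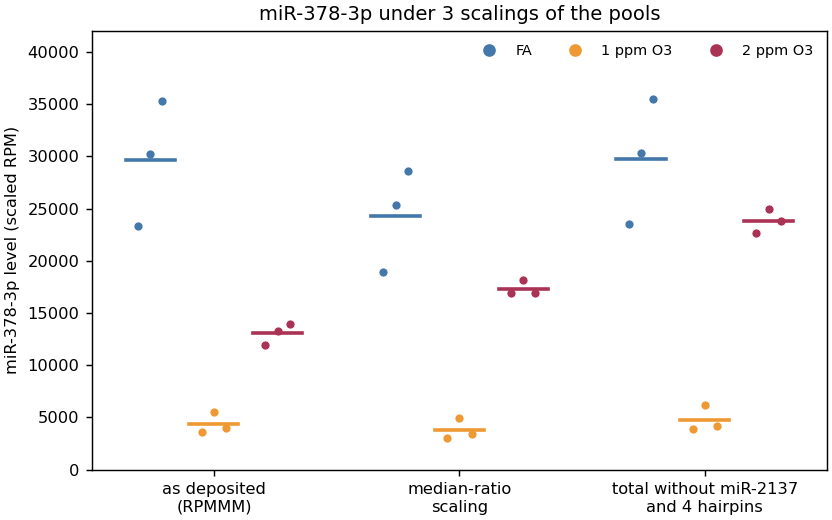
Level of miR-378-3p by pool in scaled RPM under 3 scalings, as deposited, by the median ratio, and by the total that remains without miR-2137 and 4 hairpins, with a bar at the mean of the 3 pools. The pools of 1 ppm O3 were the lowest in each, and the pools of 2 ppm O3 reached the range of FA in the last.

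Because miR-378 is known from muscle and brown fat, other miRNAs of these tissues were compared by limma on log2(RPMMM + 1), over the 461 entries, and called where the adjusted p was below 0.05 and the level changed at least 2-fold. Over all entries, 10.4% were higher and 2.82% lower for 1 ppm O3 against FA, 14.3% higher and 29.3% lower for 2 ppm O3 against FA, and 11.3% higher and 22.3% lower for 2 ppm O3 against 1 ppm O3. As counts these were 66 higher and 135 lower for 2 ppm O3 against FA and 52 and 103 against 1 ppm O3, but 87 higher and 33 lower, and 75 and 6, under a scaling by the median ratio. Of 11 muscle and brown fat miRNAs, 7 were in the table, and 5 of their 30 entries passed the filter on the mean. For 1 ppm O3 against FA none of the 5 passed the limma test, with 2 at an unadjusted p below 0.05 and a median log2 difference of -2.44. After 2 ppm O3, 4 of 5 were lower than in FA, both copies of miR-1a-3p (log2 difference -6.50, SE 1.79, adjusted p = 0.0123 by limma) and of miR-133a-3p +1 (-6.69, SE 2.04, adjusted p = 0.0202 by limma). The copies have identical values and count as a single measurement each. Where pools are listed at 0, the size of a log2 difference depends on the pseudocount. With a pseudocount of 10 the median of the 5 entries was -3.54 in place of -6.50 for 2 ppm O3 against FA. For 2 ppm O3 against 1 ppm O3 it was -1.97 in place of -4.06. The filter used the mean over the 9 pools, which FA carried for these 4 entries, so their calls as lower are not independent of the filter. Without the filter, 4 of the list's 30 entries were lower by limma for 2 ppm O3 against FA, beside 179 of all 1308 entries. Between the O3 concentrations 1 of 5 was lower after 2 ppm, miR-455-3p, a brown fat miRNA (-4.63, SE 1.51, adjusted p = 0.0358 by limma). By limma 0 of the list's entries were called in that comparison in 6 of the 9 fits that left out 1 pool, those without any 1 pool of 1 ppm O3, the pool 2 of FA, or the pool 1 or 3 of 2 ppm O3. Under a scaling by the median ratio 3 of the list's entries passed the filter and 0 were called in that comparison, with 1 at an unadjusted p below 0.05.

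miR-1a, miR-133a and miR-206 were highest in the pool 3 of FA and listed at 0 after 2 ppm O3, except for miR-1a in 1 pool. miR-1a, the main miRNA of striated muscle, had a summed level over its entries of 140, 838 and 4638 RPMMM in FA, 180, 146 and 150 RPMMM after 1 ppm O3, and 0, 179 and 0 RPMMM after 2 ppm O3. miR-133a, its partner in muscle, had 94.6, 294 and 1333 RPMMM in FA, and 67.4 RPMMM in 1 O3 pool. miR-206, of skeletal muscle, had 36.2 and 57.9 RPMMM in 2 FA pools, and miR-133b, miR-208a, miR-499 and miR-196a had no entry. Others of the list were not lowest after 1 ppm O3. miR-365 had 141, 182 and 20.5 RPMMM in FA, 278, 157 and 247 after 1 ppm O3, and 0 after 2 ppm O3. miR-455 had 108, 38.8 and 129 RPMMM in FA, 123, 59.5 and 141 after 1 ppm O3, and 0, 51.8 and 39.1 after 2 ppm O3. miR-193b was at most 31.4 RPMMM, in 1 pool of 1 ppm O3, and miR-208b was above 0 in 2 FA pools alone. Without the pool 3 of FA, 0 of the 5 entries were called for 2 ppm O3 against FA by limma, with 2 at an unadjusted p below 0.05. That pool also had the highest miR-378-3p, and without it the log2 difference of miR-378-3p for 1 ppm O3 minus FA was -2.63. After 1 ppm O3 the summed level of the muscle and brown fat list (362 to 637 RPMMM) overlapped with that in FA (528 to 6221 RPMMM), while the levels of miR-378-3p did not overlap. Of 3 further miRNAs that, like miR-378, lie within a gene of metabolism or contraction (miR-33, miR-208b and miR-499), 2 were in the table, and none of their entries passed the filter.

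The order of the means of miR-378 was shared by miRNAs of red cells. The summed level of the erythroid list (miR-451, miR-144 and miR-486) was between 884 and 1822 RPMMM in FA, between 150 and 343 after 1 ppm O3 and between 158 and 948 after 2 ppm O3. miR-451, the most abundant miRNA of red cells, had 455, 468 and 1049 RPMMM over its entries in FA, 73.2, 153 and 121 RPMMM after 1 ppm O3, and 66.5, 218 and 479.5 RPMMM after 2 ppm O3. Of the 2 entries tested, miR-451 was lower for 1 ppm O3 against FA (log2 difference -2.52, SE 0.67, adjusted p = 0.0298 by limma) and miR-486-5p had a log2 difference of -1.93 (adjusted p = 0.0644 by limma). Of all entries, 2.82% were lower in that comparison. The call of miR-451 was lost, leaving 0 calls by limma, when any 1 of 5 pools was left out, those of 1 ppm O3 and the pools 2 and 3 of FA; both entries were at an unadjusted p below 0.05 without the pool 3 of FA. Neither entry passed the limma test for 2 ppm O3 against FA, with 1 at an unadjusted p below 0.05, and for 2 ppm O3 against 1 ppm O3 neither did, with 0 at an unadjusted p below 0.05. The part of red cells or of muscle in the level of miR-378 was not tested.

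The epithelial list, of miRNAs of airway and ciliated cells, had a lower summed level after both concentrations, with 83192 to 93650 RPMMM in FA, 63439 to 68265 after 1 ppm O3 and 45494 to 49047 after 2 ppm O3, where miR-2137 and the 4 hairpins named above took 41.6% to 47.2% of the total. The list was mixed after 2 ppm O3. Over its entries miR-375 had 3202 to 3764 RPMMM in FA and 4870 to 5190 after 2 ppm O3. For miR-34b these were 5307 to 6826 and 6556 to 7372, and the other miRNAs of the list had a lower mean after 2 ppm O3 than in FA. Of 36 entries tested by limma, 3 were lower for 1 ppm O3 against FA, miR-200a-5p (-1.55), miR-200b-5p (-1.51) and miR-34c-3p (-1.02 on the log2 scale). These were 8.33% of the list, against 2.82% of all entries. Against FA, 12 were lower after 2 ppm O3, led by miR-449a-3p (-6.16), miR-200b-3p +2 (-2.26), miR-200a-5p (-1.95) and miR-200c-3p +2 (-1.81). These were 33.3% of the list, near the 29.3% of all entries that were lower in that comparison. The SE for miR-449a-3p was 1.98 (adjusted p = 0.0251 by limma), and its size depends on the pseudocount where pools are listed at 0. The other arm, miR-449a-5p, was not called (-0.75, adjusted p = 0.151 by limma). Over its entries miR-449a had 416 to 517 RPMMM in FA and 66.5 to 153 after 2 ppm O3. For 2 ppm O3 against 1 ppm O3, 3 of the list's entries were higher and 5 lower. These were led by miR-34c-3p +1 (1.78) and miR-200b-3p +2 (-1.60). The 8.33% of the list that was higher was below the 11.3% of all entries, and the 13.9% that was lower was below the 22.3% of all entries. The median log2 differences of the list were -0.60, -0.92 and -0.60 for the 3 comparisons in this order, against -0.08, -0.83 and -0.69 over all entries. By the median ratio the list's medians were -0.52, -0.23 and 0.01. The counts turned with that scaling too. For 2 ppm O3 against FA, 2 of the 36 entries were higher and 2 lower, beside 87 and 33 of all 455 entries. For 2 ppm O3 against 1 ppm O3, 8 of the 36 were higher and 0 lower, beside 75 and 6 of all 455. As deposited, with 1 pool left out in turn, between 1 and 5 of the list's entries were lower for 1 ppm O3 against FA.

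The myeloid list (miR-223, miR-142 and miR-511), which marks macrophages and neutrophils, had a summed level of 1455 to 2159 RPMMM in FA, 1848 to 2401 after 1 ppm O3 and 1285 to 1463 after 2 ppm O3. After 2 ppm O3, miR-2137 and the 4 hairpins took 41.6% to 47.2% of the total. The median log2 difference of the list for 2 ppm O3 against FA was -0.08 as deposited and 0.62 by the median ratio. Over all entries these medians were -0.83 and -0.08. Of the 5 myeloid entries tested, 0 passed the limma test for 1 ppm O3 against FA, with 1 at an unadjusted p below 0.05. miR-142-3p was lower for 2 ppm O3 against FA (-5.44, adjusted p = 0.0104 by limma) and against 1 ppm O3 (-4.46, adjusted p = 0.0347 by limma). The last of these calls was lost when any 1 of 5 pools was left out, and under a scaling by the median ratio. Of all entries, 29.3% were lower for 2 ppm O3 against FA and 22.3% against 1 ppm O3. The SE for miR-142-3p was 1.44 in both comparisons. Neither miR-142-5p (0.16) nor miR-142-5p -2 (-0.40) was called for 2 ppm O3 against FA. Over its entries miR-142 had 809 to 983 RPMMM in FA, 726 to 1173 after 1 ppm O3 and 461 to 604 after 2 ppm O3. The endothelial miR-126 was between 112 and 314 RPMMM in FA, 445 and 938 after 1 ppm O3 and 764 and 912 after 2 ppm O3. Of its 3 entries, miR-126-5p was higher for 1 ppm O3 against FA (1.77, adjusted p = 0.0411 by limma), and miR-126-5p (2.54), miR-126-3p (2.32) and miR-126-3p +1 (1.63) were higher for 2 ppm O3 against FA. The first of these calls was lost when any pool but the pool 3 of FA was left out, while at least 2 of the 3 entries were called for 2 ppm O3 against FA without any 1 pool. Without the filter on the mean, 0 of 5 miR-126 entries were called by limma for 1 ppm O3 against FA. For 2 ppm O3 against FA 2 of 5 were higher, beside 71 of all 1308 entries. Of all entries, 10.4% were higher for 1 ppm O3 against FA and 14.3% for 2 ppm O3 against FA. Thus neither the myeloid nor the endothelial list had its lowest summed level after 1 ppm O3, where miR-378-3p was lowest.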

How the data were processed

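EV small RNA of 9 pools of BALF was sequenced by the authors on a HiSeq, and reads were aligned to mm9 and quantified with miRquant 2.0. The values they deposited were RPMMM, that is RPM with the total taken over miRNA reads, for 1308 entries with isomiRs and genomic copies listed apart. Counts were not used here; the depth of 281411 to 861133 miRNA reads was estimated from the steps of the low values, of which between 70.9% and 85.7% lay within 0.1 reads of a whole number, too few for a test on counts. Intervals from depth cover counting error alone.

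Entries of miR-378 were taken by name. Levels were compared as log2(RPMMM + 1) without a test, shares and ratios within miR-378 by exact permutation tests (1680 arrangements of the pools), and the entries with a mean above 50 RPMMM by limma 3.58.1 in R 4.3.3, in a model with a mean per exposure and a trend of the variance, with Benjamini-Hochberg adjustment. The study gives the thresholds (adjusted p below 0.05, fold change of at least 2) but its text names no test for these data. The steps were tested on simulated data. The remaining steps used pandas 2.3.3, numpy 2.4.6, scipy 1.17.1 and matplotlib 3.10.9 under Python 3.11.15. Sequences and host genes are from RefSeq (GRCm38.p6), and no mm9 positions were used.

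The members and the lists were chosen with earlier results of these data known. Named miRNAs were all entries of miR-378, the 5 mature miRNAs with the highest correlation with miR-378-3p, and up to 4 called members of each list by size of change. Pool values of miR-206, miR-365, miR-455, miR-193b and miR-208b were named after their values were seen. So were further entries of miR-449a and miR-142, and the entry nearest to the edge of the pattern. miR-1 of the muscle list is miR-1a in the table. Alternatives were another pseudocount, no filter, 2 other scalings, other sums of entries, no variance trend and each pool left out; the settings for the comparison of arms were added after the data were seen.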

Additional observations from a re-analysis of the deposited data

How the results depend on the processing

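The difference of miR-378-3p for 1 ppm O3 minus FA kept its direction in all 10 alternatives, between -2.95 and -2.63 on the log2 scale. For 2 ppm O3 minus FA it moved from -1.17 to -0.47 by the median-ratio scaling and to -0.30 when miR-2137 and 4 hairpins were left out of the total, and for 2 ppm O3 minus 1 ppm O3 from 1.60 to 2.21 and 2.35; without 1 pool in turn these ranged from -1.33 to -1.03 and from 1.47 to 1.78. The shifted share of miR-378-3p (2 ppm O3 minus FA) passed an unadjusted p of 0.05 in 2 of 12 alternatives, with 2.86 points when only the +1 and +2 isomiRs were counted and 3.04 points without the pool 2 of 2 ppm O3. It ranged from 1.70 to 3.04 points without 1 pool in turn, with an exact permutation p between 0.0286 and 0.311. The share of the 5p arm did not pass the test in any of its 10 alternatives; its log2 ratio was not run because the arm is listed at 0 in 4 pools. The number of entries lowest in every pool of 1 ppm O3 rose from 11 to 19 under both other scalings. Of the muscle and brown fat entries, the calls for 1 ppm O3 against FA rose from 0 to 2 without a variance trend and were between 0 and 2 without 1 pool in turn. For 2 ppm O3 against FA they moved from 4 of 5 entries to 2 of 3 by the median ratio, where fewer entries passed the filter, and were between 0 and 5 without 1 pool in turn. For 2 ppm O3 against 1 ppm O3 they moved from 1 of 5 entries to 3 of 30 without the filter and to 0 of 3 by the median ratio, and were between 0 and 3 without 1 pool in turn. The cause of these changes was not tested. No paired analysis was possible because the labels give the pools no number shared between exposures. The depth of the pools of 2 ppm O3 limits what can be said of entries expected below about 10 reads.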
